A study of Mus musculus with 18 samples.

Results

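The genes described here encode the small GTPases, coats, tethers, adaptors and SNAREs that move membrane between compartments of the cell. They were chosen by symbol, as mouse genes whose names start with Rab, Arf, Arl, Snx, Vps, Tmed, Sec, Stx, Vamp, Cop or Ap followed by the digit or letter that marks the family. The rule found 125 probes for 98 genes among 45992 probes on the array, beside 263 protein-coding genes of the RefSeq gene table that fit it. The rule itself uses symbols only. By family these were 36 probes (29 genes) for Rab, 1 (1) for Arf, 10 (9) for Arl, 9 (9) for Snx, 13 (11) for Vps, 8 (4) for Tmed, 14 (11) for Sec, 8 (7) for Stx, 3 (2) for Vamp, 4 (2) for Cop and 19 (13) for Ap. Some symbols fit the rule but are no core member of the family, among them Rab3gap2, Rab3il1, Rab11fip1 and Rab11fip4 (regulators or effectors of Rabs), Rab10os (a transcript antisense to a Rab gene), Arl14ep and Arl6ip6 (partners of Arl proteins) and Sec1, which in the mouse encodes a fucosyltransferase.

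Total RNA of wild-type (WT) mice and of mice without a functional Cav1 gene (KO) was hybridised to 18 Illumina mouse arrays with 1 colour. The 6 groups of 3 arrays were WT and KO mouse embryonic fibroblasts (MEFs) of a primary line, taken 24 hours after plating, WT and KO liver, harvested 24 hours after food was withdrawn, and WT and KO adipose tissue, harvested 11 hours after food was withdrawn. The labels give no strain, age or sex, and leave unstated if the 3 arrays of 1 group hold RNA from different animals or cultures. The p-values therefore measure the spread between these arrays, which may be technical. The design compares KO with WT within each tissue.

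Membrane proteins and secreted proteins enter the endoplasmic reticulum (ER) through the Sec61 translocon, leave it in COPII vesicles, and are returned from the Golgi in COPI vesicles, with p24 proteins (Tmed genes) as cargo receptors in both. Rab, Arf and Arl GTPases mark each compartment and recruit tethers, adaptor complexes (AP-1 to the trans-Golgi and endosomes, AP-2 to the plasma membrane, AP-3 to endosomes) and sorting nexins, and SNAREs such as syntaxins and VAMPs fuse the membranes. Caveolin-1, the product of Cav1, coats caveolae, plasma membrane pits that are abundant in adipocytes and fibroblasts and that form a route of their own beside the clathrin-coated one.

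The arrays detected 12075 to 16971 probes each at a detection p under 0.05, and correlations between arrays of 1 tissue were 0.9465 to 0.9946. The Cav1 probe, which checks the labels, was far lower in KO than in WT in MEFs (log2 difference -3.44 ± 0.26, SE, limma's adjusted p = 0.0160) and adipose tissue (-4.38 ± 0.31, adjusted p = 0.0155). It still gave 789 to 1690 raw units on KO MEF arrays and 1940 to 3167 on KO adipose arrays, and was detected on all of them. The position of the probe relative to the deletion was not determined. In liver it was dim in both genotypes, at 158.0 to 186 in WT and 109.6 to 133.7 in KO (-0.23 ± 0.05, adjusted p = 0.0609). The hepatocyte markers on the array (2 of 6 listed, Apoa1 and Serpina1e) summed to 63182 to 69072 raw units on WT liver arrays and at most 345 on WT MEF arrays, and the adipocyte marker on the array (Fabp4, 1 of 7 listed) gave 1637 to 3291 in WT adipose tissue against 128 to 153 in WT liver. The 4 fibroblast markers on the array (of 7 listed) summed to 9800 to 13798 on WT MEF arrays, 17160 to 44463 on the brighter WT adipose arrays and 3520 to 4970 on WT liver arrays.

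Of the trafficking probes, 55 (44 genes) were detected on all 18 arrays and 29 on none. At least 1 probe was detected on 3 or more arrays for 74 genes, while 24 genes had no such probe, among them Rab18, Rab20, Stx3, Stx12, Stx16, Tmed5, Vps37a and Ap1m2. A probe entered a KO test when it was detected on at least 3 of the 6 arrays of that tissue, which left 79 probes (67 genes) in MEFs, 76 (65) in adipose tissue and 72 (60) in liver. Intensities below are either raw units of the deposited export, comparable within a tissue for 1 probe, or log2 values after background correction and quantile normalization. Adipose arrays were brighter, with a median raw value of 179.8 to 203.1 against 112.0 to 123.2 for MEFs and 106.8 to 118.9 for liver, so tissues are compared on normalized values, except for the marker sums above, which are in raw units. Because whole tissues were measured, fewer cells of a type and less RNA per cell cannot be told apart.

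Loss of Cav1 left most of these transcripts within the spread of the arrays. In KO MEFs 2 trafficking probes rose, those of the sorting nexin Snx5 and the Arf-like GTPase Arl5a. In KO liver 4 probes fell, of which 2 belong to the p24 cargo receptor Tmed4, 1 to the COPII subunit Sec23a and 1 to the endosomal syntaxin Stx8. In KO adipose tissue no trafficking probe passed. A probe is called at a Benjamini-Hochberg adjusted p under 0.05 in limma, adjusted over every probe tested in that tissue.

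In MEFs 2 of 79 trafficking probes (2.53%) were called against 0.448% of all 14047 probes (0.135% were called higher), in liver 4 of 72 (5.56%) against 4.69% of 12571 (2.73% lower), and in adipose tissue 0 of 76 against 0.407% of 15965. At an unadjusted p under 0.05 there were 9 trafficking probes in MEFs (background 10.7%), 25 in liver (22.2%) and 10 in adipose tissue (13.2%). WT and KO arrays did not overlap for 11 probes in MEFs, 13.9% of those tested, where all probes gave 16.9%. In liver this held for 27 probes (37.5% against 27.9%), and in adipose tissue for 15 (19.7% against 19.6%). Positive differences made up 49 of 79 in MEFs (all probes 49.6%), 24 of 72 in liver (48%) and 41 of 76 in adipose tissue (47.9%). The median log2 difference of the trafficking probes was -0.0348 in liver, 0.0158 in adipose tissue and 0.0189 in MEFs, beside -0.0051, -0.0035 and -7e-04 over all probes.

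**Figure D1:**
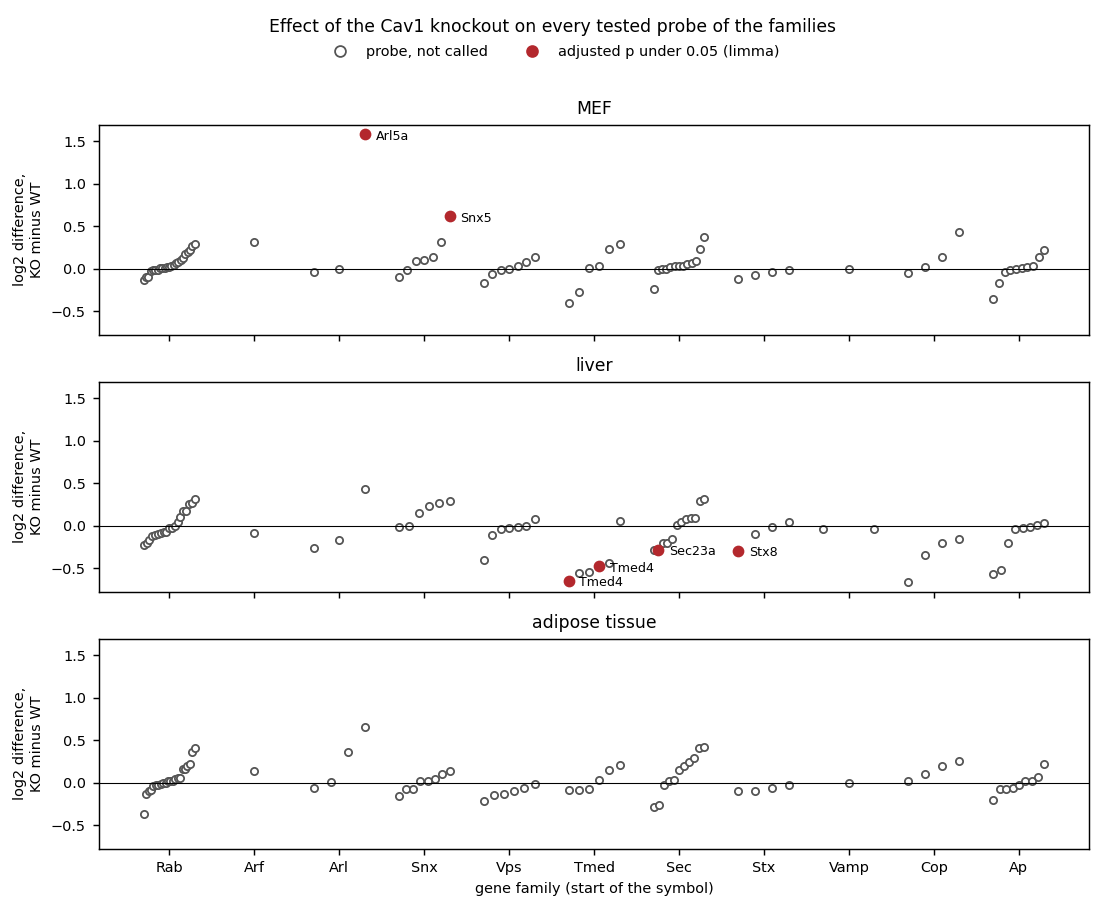
Log2 difference between Cav1 KO and WT (y axis, normalized log2 intensity, 3 arrays per group) for every tested trafficking probe, grouped on the x axis by gene family, with 1 panel per tissue. Red points are called at limma's adjusted p under 0.05. Most points lie near 0, the Arl5a and Snx5 probes stand at 1.58 and 0.62 in MEFs, and the 4 called liver probes lie between -0.64 and -0.28.

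Snx5 belongs to the sorting nexins with a BAR domain, which bend endosomal membrane and work with retromer to return cargo from endosomes to the trans-Golgi. Its raw signal was 129, 134 and 199 on the WT MEF arrays and 354, 333 and 386 on the KO MEF arrays. Each KO array was brighter than each WT array, and the probe was detected on all 3 KO arrays and on 1 of 3 WT arrays. Its 3 KO arrays alone were enough to bring it into the MEF test, so the difference in detection gives no separate support. With detection required on every array Snx5 was not tested. On the normalized scale Snx5 rose by 0.62 ± 0.06 in KO MEFs (SE, limma's adjusted p = 0.0328). Its size varied with the treatment of background, at 1.24 without background correction (limma's adjusted p = 0.000964), 2.43 with a background taken from the median absolute deviation (adjusted p = 0.0109) and 3.40 with the authors' deposited values, where it was not called (adjusted p = 0.0773). It was also not called with median centring (0.60, adjusted p = 0.115) or with no filter (adjusted p = 0.0634).

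In the other tissues Snx5 was detected on the KO arrays alone and entered the tests through them. In liver the WT arrays read 109, 118 and 113 raw units, all at background, and the KO arrays 229, 186 and 166, all detected. In adipose tissue the WT arrays read 148, 197 and 164, again at background, and the KO arrays 327, 256 and 271. Every KO array was above every WT array in both tissues, but neither difference was called. The difference was 0.29 ± 0.08 in liver (at least 1.17-fold, limma's adjusted p = 0.0939) and 0.14 ± 0.03 in adipose tissue (at least 1.05-fold, adjusted p = 0.185). These sizes too varied with how background was removed. Without background correction the liver difference was 0.60 (limma's adjusted p = 0.0223) and the adipose difference 0.66 (adjusted p = 0.0358), both called. With the authors' deposited normalized values they were 2.73 (adjusted p = 0.0244) and 2.57 (adjusted p = 0.0199). Among the 68 trafficking probes tested in all 3 tissues, the KO and WT arrays of 1 (1.47%), that of Snx5, stood apart in the same direction in each, beside 93 of all 9770 such probes (0.952%). Because Snx5 entered the liver and adipose tests through its KO arrays alone, this count and the calls above give no separate support there.

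Arl5a encodes an Arf-like GTPase of the trans-Golgi network. Its probe 2 read 239.6, 295 and 259 raw units on the WT MEF arrays and 809.9, 693 and 746 on the KO MEF arrays. The KO arrays all lay above the WT arrays with a wide gap, and Arl5a rose by 1.58 ± 0.18 (SE, 2.99-fold, limma's adjusted p = 0.0442). The call was lost with offset 50 (limma's adjusted p = 0.0580) and with no filter (adjusted p = 0.0970). In liver the same probe read 252, 145 and 209.5 in WT and 279, 329 and 332 in KO, groups that did not overlap, with a difference of 0.43 ± 0.15 that was not called (adjusted p = 0.160). In adipose tissue it read 423, 233 and 295 in WT and 519, 635 and 664 in KO. The raw adipose groups were apart, but the normalized ones overlapped (0.36 ± 0.17, adjusted p = 0.442). Probe 1 of Arl5a lay between 107.7 and 152.1 raw units on the MEF arrays, was detected too rarely to be tested in any tissue, and gives no second reading of the gene.

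With the replicate number as a block, a pairing that the MEF arrays bear out, 0 trafficking probes were called, with an adjusted p of 0.151 for Snx5 and 0.158 for Arl5a. Snx5 was called in none of the fits that left out 1 array (adjusted p from 0.0729 to 0.175), and Arl5a was called without KO replicate 1 (adjusted p = 0.0232) and not without WT 1 (0.0996), WT 2 (0.168), WT 3 (0.187), KO 2 (0.154) or KO 3 (0.0740). On the MEF slide the WT arrays took the first 3 positions and the KO arrays the last 3, so genotype and position cannot be told apart. The 4 fibroblast markers on the array (of 7 listed) summed to 9800 to 13798 raw units on WT MEF arrays and 6735 to 9449 on KO MEF arrays, with 1 called lower, and the 2 endothelial markers (of 5) to 346 to 414 and 294 to 330. Their part in the MEF differences was not tested.

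**Figure D2:**
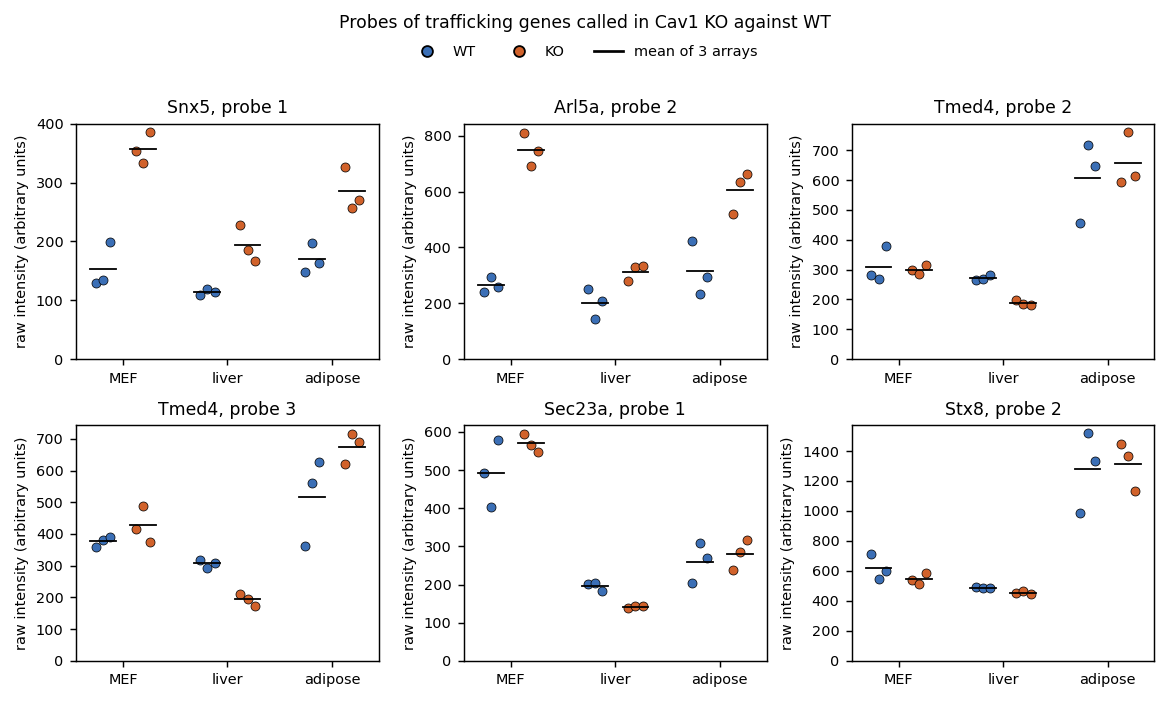
Raw intensity (y axis, arbitrary units, from 0) of the 6 probes called in any tissue, 1 panel per probe, for WT and KO arrays of each tissue on the x axis. Points are single arrays and lines are means of 3. The Snx5 and Arl5a probes are brighter on KO than on WT MEF arrays, and the Tmed4, Sec23a and Stx8 probes are dimmer on KO than on WT liver arrays.

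The promoters of Snx5 and Arl5a, called in MEFs, and of Tmed4, the gene with 2 called liver probes, are shown because they hold the DNA next to the transcripts that passed. Each runs from 250 bases before to 50 bases after the RefSeq gene start, 5′ to 3′ on the gene's strand, from RefSeq's GRCm38.p6 assembly, in which 82 of the 98 genes had an entry. Capitals mark CCAAT and CCACG on either strand (ATTGG and CGTGG on the other).
Snx5 promoter (GRCm38.p6, chr2:144270523-144270822, minus strand): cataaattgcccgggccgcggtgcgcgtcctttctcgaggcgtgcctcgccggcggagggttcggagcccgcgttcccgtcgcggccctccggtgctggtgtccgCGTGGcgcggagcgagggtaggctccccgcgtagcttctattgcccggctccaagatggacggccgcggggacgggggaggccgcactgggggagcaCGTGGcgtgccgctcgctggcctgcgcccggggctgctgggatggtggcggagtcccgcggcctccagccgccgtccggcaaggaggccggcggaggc
Arl5a promoter (GRCm38.p6, chr2:52424825-52425124, minus strand): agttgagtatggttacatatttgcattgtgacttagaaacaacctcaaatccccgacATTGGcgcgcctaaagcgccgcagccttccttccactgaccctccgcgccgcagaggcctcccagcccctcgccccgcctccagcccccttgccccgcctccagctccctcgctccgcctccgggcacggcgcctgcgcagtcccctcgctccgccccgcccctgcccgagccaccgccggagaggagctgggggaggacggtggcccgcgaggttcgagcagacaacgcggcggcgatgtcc
Tmed4 promoter (GRCm38.p6, chr11:6274788-6275087, minus strand): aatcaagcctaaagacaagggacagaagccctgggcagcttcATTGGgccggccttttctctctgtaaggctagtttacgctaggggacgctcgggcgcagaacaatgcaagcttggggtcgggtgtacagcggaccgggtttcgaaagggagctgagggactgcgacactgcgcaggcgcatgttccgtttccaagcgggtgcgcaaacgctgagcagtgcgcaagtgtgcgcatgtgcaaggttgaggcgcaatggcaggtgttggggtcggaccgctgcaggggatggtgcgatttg
In the Snx5 window CCACG matched 2 times, at -145 and -48 from the gene start, and CACGTG matched once, at -50, overlapping the second. Arl5a held CCAAT 1 time and GGGCGG 2 times (CCGCCC on the other strand), and Tmed4 held CCAAT 1 time. Among all 32544 RefSeq promoters of this length 37.4% held CCAAT, 33.0% CCACG, 35.9% GGGCGG and 7.17% CACGTG, so most of these matches are common. The windows were 75.7%, 69.0% and 59.7% G and C. Neither TGACGT nor CGGAAG was found in these 3 windows.

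Tmed4 encodes a p24 protein that cycles between ER and Golgi, and the array holds 3 probes for it. Probe 2 read 265.8, 266.7 and 280.1 raw units on the WT liver arrays and 199, 184 and 182 on the KO liver arrays. Probe 3 read 319, 293 and 310.0 on the WT liver arrays and 212, 195 and 174 on the KO liver arrays. In both, each KO array was dimmer than each WT array. Probe 2 fell by 0.48 ± 0.04 (1.39-fold, limma's adjusted p = 0.00775) and probe 3 fell by 0.64 ± 0.06 (1.56-fold, adjusted p = 0.00976). With a background taken from the median absolute deviation the differences were -1.09 and -1.28, and with the authors' deposited values -1.57 and -1.79. Probe 1, the brightest, read 939, 920 and 1174 in WT and 737, 964.6 and 819.5 in KO. Its raw groups overlapped while its normalized groups did not, and its difference of -0.44 ± 0.14 was not called (adjusted p = 0.138). Both calls held under every change of background, scaling, filter or variance model and with slide or replicate number as a block, and were lost without WT replicate 3 (adjusted p = 0.0504 for both).

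The other p24 probes of liver gave mixed values. Tmed2 probe 2 read 1367, 1151 and 1079 raw units in WT against 1011, 854 and 872 in KO, apart but not called (-0.56 ± 0.16, limma's adjusted p = 0.119). Tmed10 probe 2 was positive in liver, at 0.06. The 6 Tmed probes stand for only 3 genes. The 5 probes of Tmed4 and Tmed2 were negative, and the median of all 6 was -0.51. That direction held under each scaling tried. In MEFs the largest of the family in size was Tmed4 probe 1 at -0.41 ± 0.16, with overlapping groups. Tmed10 probe 2, for a major p24 receptor, stood apart in MEFs (5372, 4598 and 5516 in WT, 3591, 4074 and 4547 in KO), yet at -0.28 ± 0.04 it was not called (adjusted p = 0.0878).

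Sec23a encodes a subunit of the inner COPII coat. Its liver WT arrays read 201, 203 and 182 raw units and its KO arrays 137, 143 and 142, without overlap, and it fell by 0.28 ± 0.05 (1.22-fold, limma's adjusted p = 0.0461). The difference was -0.51 without background correction (limma's adjusted p = 0.0144), -1.25 with a background taken from the median absolute deviation (adjusted p = 0.00769) and -2.24 with the authors' deposited values (adjusted p = 0.0117). The call was lost with offset 50 (adjusted p = 0.0516), median centring (0.0595), no filter (0.0623) and detection on every array (0.0515). In MEFs the probe read 493, 405 and 579 in WT and 594, 567 and 549 in KO, and in adipose tissue 203, 308 and 269 in WT and 238, 286 and 316 in KO, with overlapping groups in both (0.37 ± 0.16 and 0.03 ± 0.05, not called). The other liver probes of the COPII coat list, which held 4 tested genes, were Sec16a (-0.29 ± 0.14), Sec24b (-0.16 ± 0.06) and Sec24a (0.01 ± 0.09), and none of these was called. COPI subunits were not called either, although the 4 Cop probes of liver, from only 2 genes (Copa and Cope), were all negative (median -0.27, and 3 of 4 negative with median centring). Cope probe 2, for epsilon-COP, read 759, 607 and 618 in WT liver and 572, 481 and 472 in KO liver (-0.66 ± 0.17, adjusted p = 0.0931), while in adipose tissue the 4 Cop probes were all positive and uncalled, with Copa at 0.25 ± 0.11 and Cope probe 1 at 0.19 ± 0.06.

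Stx8, a SNARE of late endosomes, has 2 tested probes that disagree in liver. Probe 2 read 490.0, 487 and 488.5 raw units in WT and 454, 464 and 443 in KO, a narrow separation, and fell by 0.30 ± 0.06 (limma's adjusted p = 0.0469). Probe 1, the brighter, read 1121, 1101 and 1298 in WT and 1163, 1249 and 1236 in KO, with overlap and a difference of -0.02 ± 0.05. With median centring the difference of probe 2 was -0.05 and the call was lost. It was lost as well without background correction (limma's adjusted p = 0.146), with a background taken from the median absolute deviation (0.293), the authors' deposited values (0.323), no filter (0.0697), detection on every array (0.0519) and a trended robust variance (0.203), and kept with offset 50 (0.0478). The remaining syntaxins (Stx6, Stx17) were not called in any tissue. The 4 Stx probes, from 3 genes, were all negative in MEFs (median -0.05) and in adipose tissue (median -0.08), signs that held under each scaling. Vamp7, a SNARE of late endosomes and lysosomes, gave -0.03 ± 0.09 and -0.04 ± 0.04 with its 2 liver probes.

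The liver calls of Sec23a and Stx8 were lost with either block and after dropping any 1 array, with limma's adjusted p from 0.0640 (without KO 1) to 0.140 (without KO 2) for Sec23a and from 0.0669 (without KO 1) to 0.133 (without WT 2) for Stx8. Marker sums also differed between WT and KO liver arrays. The 2 haemoglobin markers on the array (of 3 listed) summed to 20241 to 34416 raw units on WT liver arrays and 4310 to 16084 on KO liver arrays, and the 2 hepatocyte markers to 63182 to 69072 and 41259 to 42651, with 1 of the 2 called lower. The 4 fibroblast markers on the array (of 7 listed, Col1a1 not detected) summed to 3520 to 4970 in WT and 5073 to 8028 in KO, with 0 called. Their part in these differences was not tested. In liver 24 of 72 trafficking probes were positive (33.3% against 48% of all probes), and 44 of 72 when arrays were centred on their median, a scaling that moved the median of all probes to 0.0558.

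Among the Rab GTPases no probe was called between genotypes. In MEFs the 18 tested Rab GTPase genes had a median of 0.0135, with Rab7 probe 2 at 0.27 ± 0.12, Rab21 at 0.17 ± 0.06, Rab8a probe 1 at 0.10 ± 0.03 and Rab8b probe 1 at -0.13 ± 0.04, all without overlap of the groups. The groups overlapped for the other tested probes of these genes. These were Rab7 probes 1 and 3 (0.29 and 0.22), Rab8a probe 2 (0.03) and Rab8b probe 2, which had the opposite sign (0.04). In liver Rab9, which acts in transport from late endosomes to the trans-Golgi, came closest. It read 177, 191 and 179 raw units in WT and 139, 137 and 146 in KO, and its difference of -0.22 ± 0.04 had limma's adjusted p = 0.0538. It was called without background correction, with a background taken from the median absolute deviation, with the authors' deposited values and with a trended robust variance. Rab28 was called in liver with median centring alone (0.48). The liver Rab probes were 7 positive and 12 negative, but 15 and 4 with median centring, so no direction can be given for them.

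Rab6b, a Golgi Rab, had the lowest adjusted p of the families in adipose tissue. Its WT arrays read 460.2, 689 and 566 raw units and its KO arrays 446, 392 and 218, and the KO array at 218 was not detected. The groups were apart (-0.37 ± 0.07, limma's adjusted p = 0.134), and it was called with a trended robust variance (adjusted p = 0.0428). Outside adipose tissue the probe was not detected on any array. Rab11b and Rab35, GTPases of recycling endosomes, were also apart in adipose tissue and uncalled, at 0.19 ± 0.05 and 0.36 ± 0.14. Rab4a, of fast recycling, was at -0.13 ± 0.04.

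Adaptors, tethers and the ER gate held no call between genotypes. Ap3s1, the small subunit of AP-3, read 1192, 985 and 1128 raw units in WT liver and 832, 779 and 899.5 in KO liver (-0.57 ± 0.11, limma's adjusted p = 0.0560), and was called without background correction (-0.45, adjusted p = 0.0385). In adipose tissue it was apart as well, at -0.20 ± 0.06. The AP-2 genes Ap2s1 (-0.52 ± 0.18) and Ap2m1 (-0.20 ± 0.07) were apart in liver, and Ap2m1 read 1805, 1491 and 2014 in WT MEFs against 1165, 1300.4 and 1653 in KO MEFs, where raw groups overlapped and normalized ones did not (-0.35 ± 0.09, adjusted p = 0.254). Vps53, of the GARP tether, was at -0.40 ± 0.11 in liver. All 6 Vps probes of adipose tissue were negative under each scaling (median -0.11), none called, whereas the liver split of 1 positive and 6 negative became 5 and 2 with median centring. Of the translocon genes, Sec61g was at 0.32 ± 0.12 in liver, and Sec63 probe 1 and Sec11a at 0.41 ± 0.11 and 0.42 ± 0.16 in adipose tissue, all apart and uncalled. In the other direction, Sec11a (-0.20) and Sec61b probe 1 (-0.21 ± 0.09) were apart and uncalled in liver, while Sec61b probe 2 was at 0.09 there. In adipose tissue the 4 fibroblast markers on the array (of 7 listed) summed to 17160 to 44463 raw units in WT and 31498 to 79729 in KO, and the 3 macrophage markers (of 6) to 2326 to 8847 and 4286 to 14224. Their part in the adipose values was not tested.

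The difference between the KO effects of each pair of tissues was tested itself, in 1 limma fit over all 18 arrays with 88 trafficking probes. Probes entered this fit whether or not a KO effect was called in any tissue. Between liver and MEFs 6 probes differed, all toward a lower value in liver (background 3.77%, 1.93% lower). Between adipose tissue and MEFs 3 differed, all lower in adipose tissue (2.49%, 1.19% lower), and between adipose tissue and liver 4 differed, 3 higher and 1 lower in adipose tissue (4.23%, 1.99% higher and 2.24% lower). These contrasts share arrays pairwise.

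The KO effect on Arl5a in liver minus that in MEFs was -1.15 ± 0.26 (limma's adjusted p = 0.0244) and in adipose tissue minus that in MEFs -1.31 ± 0.26 (adjusted p = 0.0156). For Snx5 the effect in adipose tissue minus that in MEFs was -0.54 ± 0.10 (adjusted p = 0.0106), but none of these 3 differences was called without background correction, with a background taken from the median absolute deviation, or with the authors' deposited values. For Tmed4 probe 3 the KO effect in liver minus that in MEFs was -0.94 ± 0.17 (adjusted p = 0.00720) and that in adipose tissue minus liver 0.90 ± 0.17 (adjusted p = 0.00855), and for probe 2 these were -0.55 ± 0.10 and 0.57 ± 0.10, neither of which was called with median centring (adjusted p = 0.175 and 0.0902). Sec23a differed by -0.76 ± 0.16 between liver and MEFs (adjusted p = 0.0204), with a KO effect of -0.37 in liver and 0.38 in MEFs in this fit. Rab9 and Rab21 differed between liver and MEFs by -0.37 ± 0.06 and -0.43 ± 0.09, although neither was called between genotypes in any tissue. Rab6b differed between adipose tissue and MEFs by -0.34 ± 0.06. Rab6b, also counted between adipose tissue and liver, was not detected on any MEF or liver array. Both of its contrasts therefore rest on its adipose difference, which was itself not called, and do not compare KO effects between tissues.

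**Figure D3:**
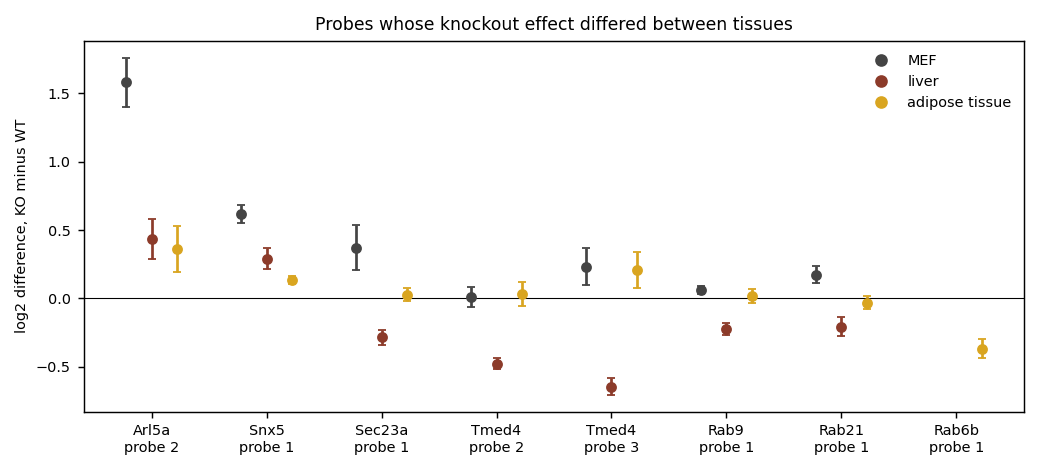
Log2 difference between Cav1 KO and WT with its SE (y axis, limma, 3 arrays per group) in MEFs, liver and adipose tissue, for the 8 probes on the x axis whose KO effect differed between at least a pair of tissues. Arl5a and Snx5 are highest in MEFs, the Tmed4, Sec23a, Rab9 and Rab21 probes are lowest in liver, and Rab6b was tested in adipose tissue alone.

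Differences between tissues were far larger than those between genotypes. The 3 WT groups were compared in 1 fit of 17420 probes, 79 of them of trafficking genes (67 genes), and the comparisons share groups pairwise. Each tissue lay on slides of its own, so tissue and slide cannot be told apart. Between WT adipose tissue and WT liver 51 trafficking probes were called (background 58.7%), 19 higher and 32 lower in adipose tissue (all probes 32.4% higher, 26.3% lower). Between WT MEFs and WT liver 51 were called (59.3%), 32 higher and 19 lower in MEFs (34.2% and 25.1%), and between WT adipose tissue and WT MEFs 47 (60.9%), 15 higher and 32 lower in adipose tissue (29.4% and 31.6%). The shares called were near those of the whole array. With median centring the adipose against liver split became 27 higher and 20 lower, and the MEF against liver split 32 and 9. The median difference of the trafficking probes was -0.08, 0.04 and -0.17 in these 3 comparisons, beside 0.02, 0.01 and -0.01 over all probes.

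The KO arrays share no sample with these fits, but were normalized together with the WT arrays and lay on slides of the same tissue. A difference between slides would therefore recur in them. Of the called probes that were tested there too, 38 of 50 were called the same way between KO adipose tissue and KO liver, 39 of 51 between KO MEFs and KO liver, and 40 of 46 between KO adipose tissue and KO MEFs. These shares were 76%, 76.5% and 87%, beside 77.1%, 84.2% and 83.3% of all probes called and tested in the same way. The sign was the same for 45, 47 and 46 of them (90%, 92.2% and 100%, beside 97.2%, 97.9% and 98.3% of all such probes).

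All 4 tested genes of the translocon and signal peptidase list (Sec63, Sec61b, Sec61g and Sec11a) were lower in WT adipose tissue than in WT MEFs, with a median of -1.69 where all named genes had -0.04 and 64.8% were called. By the brightest probe of each gene, all 4 were also higher in WT MEFs than in WT liver (median 0.75, all named genes 0.04, 66.6% called), while Sec63 probe 2 was not called there (0.33 ± 0.13). Between WT adipose tissue and WT liver 2 of the 4 were called lower, with a median of -0.72 where all named genes had 0.0027 and 61.2% were called. The directions against MEFs held for each of their probes under each background and scaling compared.

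Sec63, the translocon partner that recruits the chaperone BiP, read 11.65, 11.54 and 11.84 (normalized log2) on WT MEF arrays, 10.93, 11.18 and 11.08 on WT liver arrays and 9.40, 9.27 and 8.997 on WT adipose arrays with probe 1. The 3 tissues were fully separated. Adipose tissue differed from MEFs by -2.45 ± 0.12 (1.26e-06 as limma's adjusted p) and from liver by -1.84 ± 0.12. Probe 2 gave -1.94 ± 0.13 and -1.61 ± 0.13. Sec11a, a catalytic subunit of signal peptidase, read 13.12, 13.11 and 13.09 in WT MEFs, 11.82, 11.86 and 12.04 in WT liver and 10.61, 10.96 and 11.03 in WT adipose tissue, again with no overlap, and adipose tissue differed from MEFs by -2.23 ± 0.11 and from liver by -1.04 ± 0.11.

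The Sec61 channel subunits separated MEFs from both tissues rather than the tissues from each other. Sec61b probe 2 read 10.67, 10.61 and 10.65 in WT MEFs, 9.10, 8.84 and 8.96 in WT liver and 8.90, 8.88 and 9.42 in WT adipose tissue. Liver and adipose arrays overlapped, and MEFs were above both, by 1.68 ± 0.14 over liver, with adipose tissue minus MEFs at -1.58 ± 0.14. Probe 1 gave 0.84 ± 0.13 for MEFs against liver and -1.15 ± 0.13 for adipose tissue against MEFs. Sec61g read 12.57, 12.31 and 12.55 in WT MEFs, 11.98, 11.67 and 11.81 in WT liver and 11.32, 11.75 and 11.14 in WT adipose tissue. The adipose and liver groups of Sec61g overlapped, with a difference of -0.41 ± 0.16 that was not called (limma's adjusted p = 0.0575), and adipose tissue differed from MEFs by -1.07 ± 0.16.

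**Figure D4:**
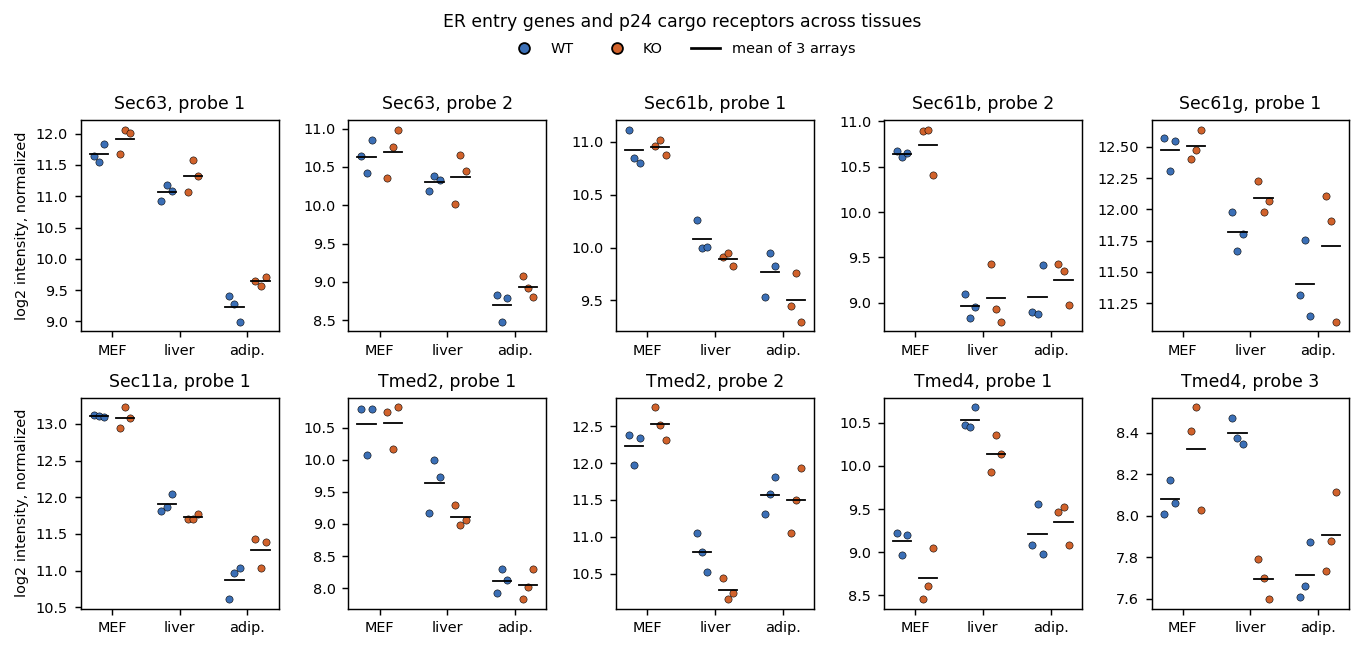
Normalized log2 intensity (y axis, a separate range per panel) of single arrays for the ER entry genes Sec63, Sec61b, Sec61g and Sec11a and the p24 genes Tmed2 and Tmed4, by tissue on the x axis and genotype, with lines at means of 3. The ER entry probes are highest in MEFs, and the Sec63 and Sec11a probes fall from MEFs to liver to adipose tissue. The Tmed2 probes place liver and adipose tissue in opposite order.

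Promoters of these 4 genes are shown because by their brightest probes all 4 were called lower in adipose tissue, and lower in liver, than in MEFs. They are in the same format, with CCAAT and CCACG on either strand in capitals.
Sec63 promoter (GRCm38.p6, chr10:42761246-42761545, plus strand): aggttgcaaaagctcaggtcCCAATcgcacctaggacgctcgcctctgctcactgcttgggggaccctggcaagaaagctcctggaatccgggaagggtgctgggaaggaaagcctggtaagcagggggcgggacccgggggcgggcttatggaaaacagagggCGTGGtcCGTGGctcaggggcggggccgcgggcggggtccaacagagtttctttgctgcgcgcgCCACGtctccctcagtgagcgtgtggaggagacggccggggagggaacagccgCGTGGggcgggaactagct
Sec61b promoter (GRCm38.p6, chr4:47474411-47474710, plus strand): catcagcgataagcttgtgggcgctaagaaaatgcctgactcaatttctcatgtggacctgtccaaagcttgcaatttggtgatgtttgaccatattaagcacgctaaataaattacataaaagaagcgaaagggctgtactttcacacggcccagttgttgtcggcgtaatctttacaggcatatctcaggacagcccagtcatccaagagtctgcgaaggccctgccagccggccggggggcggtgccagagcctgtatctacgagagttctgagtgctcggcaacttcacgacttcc
Sec61g promoter (GRCm38.p6, chr11:16508435-16508734, minus strand): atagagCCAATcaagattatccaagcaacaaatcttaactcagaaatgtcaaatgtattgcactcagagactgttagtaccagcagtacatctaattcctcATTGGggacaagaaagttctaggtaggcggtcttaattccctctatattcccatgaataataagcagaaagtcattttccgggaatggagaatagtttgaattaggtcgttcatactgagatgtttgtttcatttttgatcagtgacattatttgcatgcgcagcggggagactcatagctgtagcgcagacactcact
Sec11a promoter (GRCm38.p6, chr7:80947501-80947800, minus strand): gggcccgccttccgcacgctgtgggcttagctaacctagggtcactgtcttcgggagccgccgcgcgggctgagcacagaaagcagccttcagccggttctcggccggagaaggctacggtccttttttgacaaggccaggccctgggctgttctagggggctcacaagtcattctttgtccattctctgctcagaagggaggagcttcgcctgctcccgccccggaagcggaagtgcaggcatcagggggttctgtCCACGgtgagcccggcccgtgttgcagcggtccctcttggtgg
The Sec63 window held CCAAT 1 time, CCACG 4 times and GGGCGG 5 times, that of Sec61g held CCAAT 2 times, that of Sec11a CCACG 1 time, GGGCGG 1 time and CGGAAG 3 times, and that of Sec61b GGGCGG 1 time. None held TGACGT, which is present in 7.55% of all promoters. Over the 97 promoters of trafficking genes (some genes have several), 41.2% held CCAAT, 44.3% CCACG, 64.9% GGGCGG, 17.5% TGACGT and 38.1% CGGAAG (17.0% of all promoters). G and C made up 66.3% of the Sec63 window, 50.3% of Sec61b, 39.7% of Sec61g and 64.0% of Sec11a.

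The p24 genes were not uniform. Tmed2, whose product forms p24 complexes with Tmed10, had 2 probes called in opposite directions between adipose tissue and liver, the 1 such case among 9 genes with several tested probes. Probe 1 read 9.17, 9.998 and 9.73 in WT liver and 7.93, 8.29 and 8.13 in WT adipose tissue (-1.52 ± 0.26), while probe 2 read 11.05, 10.79 and 10.53 and then 11.31, 11.59 and 11.82 (0.78 ± 0.18). Each probe separated the tissues, with the order turned, so no direction is given for Tmed2 there. Both were brightest in MEFs. Tmed4 probe 1 was highest in liver, at 10.47, 10.45 and 10.68 in WT liver against 9.22, 8.97 and 9.20 in WT MEFs and 9.08, 9.55 and 8.98 in WT adipose tissue (-1.40 ± 0.15 for MEFs and -1.33 ± 0.15 for adipose tissue against liver). Probes 2 and 3 of Tmed4 were also called higher in WT liver (-0.34 and -0.32 for MEFs, -0.37 and -0.68 for adipose tissue against liver). In the KO arrays both were lowest in liver instead. Probe 2 averaged 7.67 in KO liver, 7.88 in KO MEFs and 7.87 in KO adipose tissue, and probe 3 averaged 7.70, 8.32 and 7.91. Tmed10 probe 2 was lower in adipose tissue than in MEFs (-1.14 ± 0.09).

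Coat subunits differed by paralog. Sec24b, a cargo-binding COPII subunit, read 8.15, 8.16 and 8.09 in WT liver, 9.06, 9.16 and 9.38 in WT MEFs and 10.03, 9.77 and 9.75 in WT adipose tissue, rising in that order without overlap (adipose against liver 1.72 ± 0.10). Its paralog Sec24a read 8.10, 8.36 and 8.13 in WT liver, 7.53, 7.44 and 7.69 in WT MEFs and 7.398, 7.39 and 7.32 in WT adipose tissue, the reverse order (-0.83 ± 0.08 for the same contrast), although adipose tissue against MEFs was not called for Sec24a. Sec23a was highest in MEFs (-1.05 ± 0.09 for adipose tissue against MEFs), and Sec16a, the scaffold of ER exit sites, was higher in adipose tissue than in MEFs (0.77 ± 0.14). For COPI, Copa read 11.98, 11.94 and 12.04 in WT MEFs, well above 10.72, 10.75 and 10.69 in WT liver and 10.87, 10.72 and 10.83 in WT adipose tissue, a difference of 1.27 ± 0.05 against liver. Cope probe 1 was lower in adipose tissue than in liver (-1.02 ± 0.12), and its probes 2 and 3 gave -0.26 and -0.31 there.

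Rab GTPases split by member as well. Rab8b, of exocytic traffic, was lowest in liver, at 8.22, 7.79 and 7.90 in WT liver against 10.18, 10.20 and 10.25 in WT MEFs and 9.87, 10.24 and 10.11 in WT adipose tissue (2.24 ± 0.12 and 2.11 ± 0.12 over liver). Its paralog Rab8a went the other way between adipose tissue and liver in both probes (-0.73 ± 0.09 and -0.57 ± 0.10). Rab4a read 8.89, 8.80 and 9.09 in WT liver, above 8.17, 7.97 and 8.10 in WT MEFs and 7.82, 7.78 and 7.84 in WT adipose tissue, with all 3 groups apart and adipose tissue below liver by -1.12 ± 0.08. Rab28 was lowest in liver (adipose against liver 1.502 ± 0.16), as was Rab3gap2, the non-catalytic subunit of a Rab3 GTPase-activating complex, at 8.06, 7.91 and 8.05 in liver, 8.84, 8.89 and 8.73 in MEFs and 9.27, 9.25 and 9.28 in adipose tissue (1.26 ± 0.05). Rab35 was higher in MEFs than in liver (1.46 ± 0.13) and adipose tissue (-1.26 ± 0.13 as adipose minus MEF), and Rab11b was higher in adipose tissue than in liver (0.79 ± 0.06). Rab6b was not well above background in MEFs and liver and was at least 1.34-fold and at least 1.32-fold higher in adipose tissue.

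Of Arf and Arl genes, Arl1, which recruits golgins to the trans-Golgi, was lower in adipose tissue than in MEFs (-1.24 ± 0.19), though between KO arrays this contrast was not called (-0.55). Arf5 was lower in adipose tissue than in MEFs too (-1.07 ± 0.13), and Arl8b, which moves lysosomes along microtubules, was highest in liver (MEFs against liver -0.68 ± 0.05). All 6 tested sorting nexin probes were positive for MEFs against liver under each scaling, and 4 of them were called, where 59.3% of all probes were called and 34.2% were called higher. Snx11 read 10.54, 10.90 and 10.82 in WT MEFs, 8.73, 8.89 and 9.07 in WT liver and 10.05, 9.77 and 10.37 in WT adipose tissue, apart in all 3 (MEFs against liver 1.85 ± 0.17). Snx12 and Snx2 were higher in MEFs than in liver by 1.02 ± 0.06 and 1.00 ± 0.19. Vps29, a core subunit of retromer, was higher in MEFs than in liver (1.05 ± 0.17) and lower in adipose tissue than in MEFs (-1.35 ± 0.17).

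Among adaptors and tethers, Ap3s1 was higher in adipose tissue than in MEFs and liver. It read 11.82, 11.86 and 11.93 in WT adipose tissue, 11.22, 10.97 and 11.07 in WT MEFs and 10.84, 10.54 and 10.61 in WT liver, fully separated, with differences of 0.78 ± 0.09 over MEFs and 1.21 ± 0.09 over liver. Ap2m1, the cargo-binding subunit of AP-2, was lower in adipose tissue than in MEFs (-1.06 ± 0.08) and liver (-0.96 ± 0.08). Ap1b1, of AP-1, was higher in adipose tissue than in MEFs (0.60), as were the GARP and EARP subunit gene Vps51 (0.70 ± 0.11) and the CORVET gene Vps8 (0.38 ± 0.06). Against liver Vps51 was higher in adipose tissue by 0.55 ± 0.11 and Vps8 by 0.49 ± 0.06, both called. Vps4b, an ATPase that disassembles ESCRT-III, was lower in MEFs (-0.43) and adipose tissue (-0.61) than in liver.

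**Figure D5:**
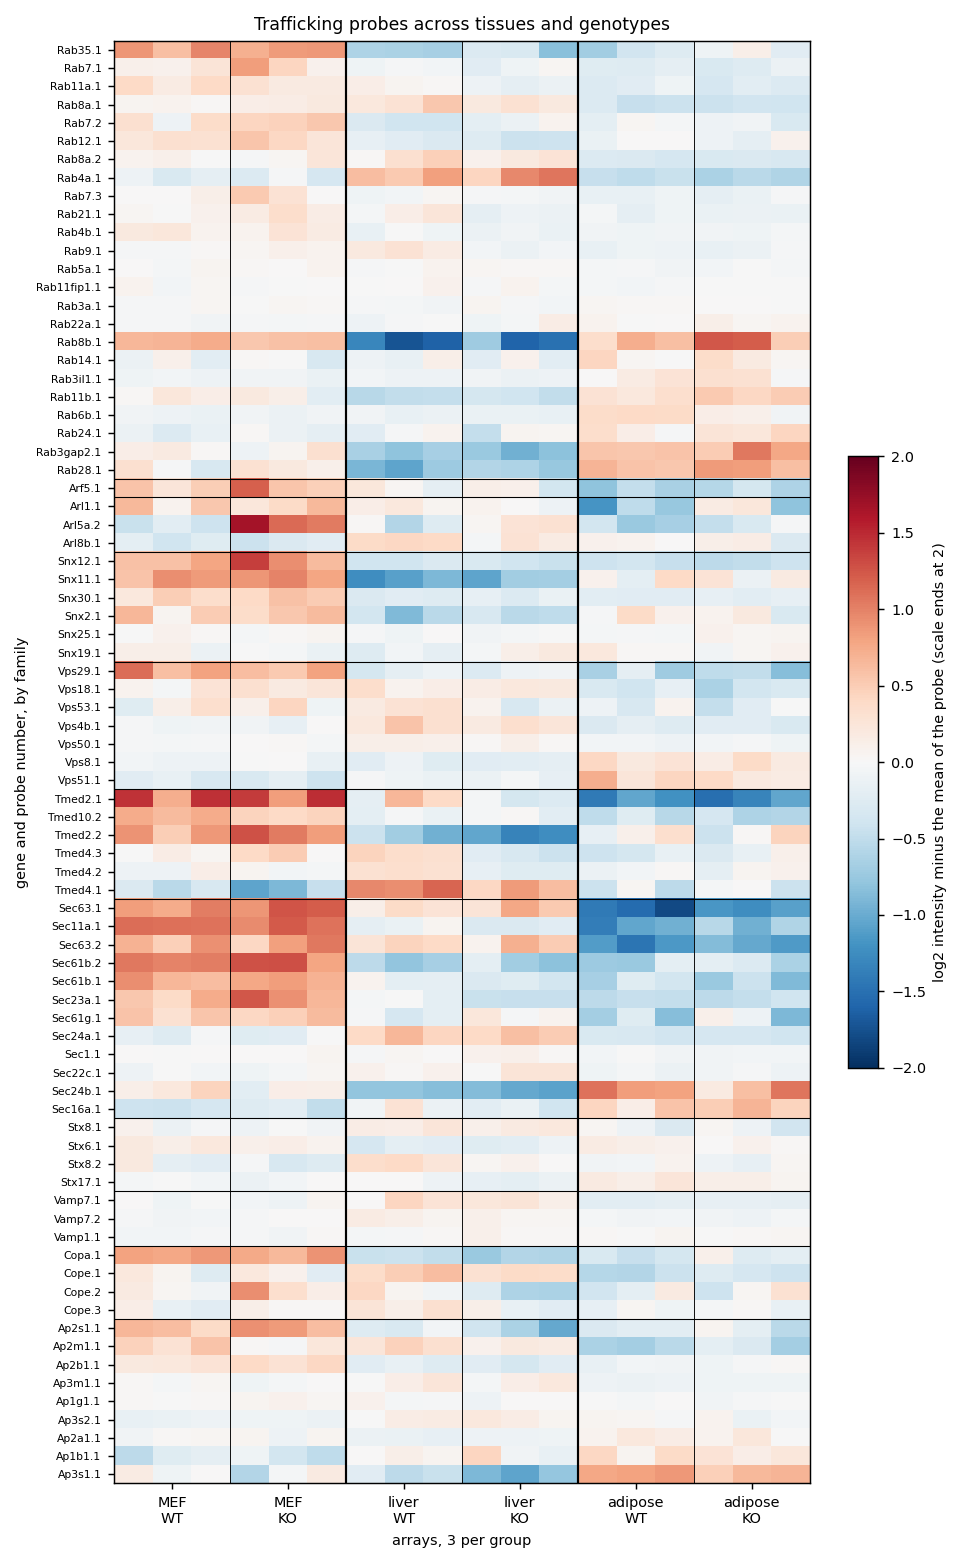
Log2 intensity of each of the 79 probes tested between WT tissues, minus that probe's mean over all 18 arrays (colour scale, ending at 2 in either direction), with arrays on the x axis in groups of 3 and probes on the y axis by family and gene. WT and KO columns of a tissue look alike, and differences between tissues dominate, such as Sec63 and Sec11a low in adipose tissue and Rab8b low in liver.

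Genes with several tested probes show how far 1 probe speaks for its gene. Between genotypes, all probes had the same sign for 7 of 9 such genes in MEFs, for 7 of 9 in liver and for 6 of 8 in adipose tissue. Between WT tissues this was so for 6 of 9 in adipose tissue against liver, 9 of 9 in MEFs against liver and 6 of 9 in adipose tissue against MEFs. All probes were called for 6, 4 and 4 genes.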

How the data were processed

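The submitters measured RNA on 18 Illumina Mouse-6 arrays. Deposited raw intensity and detection p-values came from BeadStudio 1.5.1.3, per the file headers. The submitters' processing notes also name lumi, RMA, affy and limma, with no role given. A second deposited table held normalized intensity, used only as an alternative, and a deposited sample sheet gave slide and position. No other aligner, build or probe annotation is given in the sources used here.

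Gene names were inferred from the number in each probe name, read as an NCBI gene ID (9807 of 11868 probes with such a number matched the RefSeq gene table), and 66 control probes were left out. Raw intensities were background corrected and quantile normalized with neqc (limma 3.58.1, R 4.3.3, offset 16), per tissue for KO against WT and over all 18 arrays for tissues and for differences between KO effects. Probes detected (p under 0.05) on 3 or more of the arrays compared were fitted with lmFit and eBayes, with Benjamini-Hochberg adjustment over all probes tested. The fitted background SD was 112.4 to 507, against a scaled median absolute deviation of 11.71 to 22.98, so differences of dim probes are compressed. The number of arrays limits the precision. A gene list takes the brightest probe of each gene. Named genes were those called between genotypes, up to 10 more per tissue with the largest differences among groups that did not overlap, up to 10 per direction with the largest called tissue differences, called differences between KO effects, other probes of these genes, and up to 3 examples per role list. The members, gene lists and tests were chosen with earlier results of these data known.

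MEF arrays lay on slide 1, liver on slides 2 and 3 (WT 1 alone on 3) and adipose tissue on slide 4. Same-numbered WT and KO MEF arrays deviated together more than arrays of other numbers did (correlations 0.101, 0.227 and 0.239). In liver this held for numbers 1 and 2 (0.228 and 0.234) and not for number 3 (-0.103). The main fits were unpaired, and the replicate number entered only as a block in an alternative. The fit was run on simulated data with shifts of 2 log2 units. These exceed every difference called between genotypes, so the simulation gives no information on differences of that size. Alternatives changed the background, offset, scaling, filter, variance model and blocks, used the deposited values, or left out each array.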

Additional observations from a re-analysis of the deposited data

Results flagged for a closer look

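For 8 probes the difference between Cav1 KO and WT differed between tissues, by a test of the difference itself in 1 limma fit over all 18 arrays (adjusted p under 0.05). As liver minus MEF, the KO effects differed by -0.3685 for Rab9, -0.9409 for Tmed4 probe 3, -0.5525 for Tmed4 probe 2, -0.7556 for Sec23a, -0.4269 for Rab21 and -1.1527 for Arl5a. As adipose tissue minus MEF, they differed by -0.3396 for Rab6b, -0.54 for Snx5 and -1.307 for Arl5a. As adipose tissue minus liver, they differed by 0.3107 for Rab9, 0.5698 for Tmed4 probe 2, -0.3002 for Rab6b and 0.8951 for Tmed4 probe 3. Rab6b was not detected on MEF or liver arrays, so its values there are background. The 3 contrasts share arrays pairwise.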

How the results depend on the processing

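Between genotypes in MEFs, where 2 trafficking probes were called, 1 was called with offset 50, with median centring, with the authors' deposited values and with probes detected on every array, and 0 with no filter and with the replicate block. Leaving out 1 array gave 0 to 1. In liver, where 4 were called, 2 were called with no filter, with detection on every array and with slide as a block. With median centring 3 (1 higher, 2 lower) were called, and 3 with the replicate block, whose numbers paired the liver arrays only in part. Leaving out 1 array gave 0 (without WT 3) to 5 (without KO 1). In adipose tissue, where 0 were called in limma and 10 had an unadjusted p under 0.05, 1 was called with no background correction, with the median absolute deviation background and with the deposited values, and 2 with a trended robust variance. Leaving out 1 array gave 0 each time. No paired analysis was possible in adipose tissue because WT and KO arrays share 1 replicate number. Tissue counts of 51, 51 and 47 ranged over 38 to 52, 41 to 51 and 41 to 53, the replicate block giving 38, 43 and 42, and over 42 to 52, 42 to 51 and 41 to 50 with 1 array left out. For differences between KO effects, liver minus MEF (6) gave 3 with detection on every array and 4 (1 higher, 3 lower) with median centring. Adipose minus MEF (3) gave 1 with no background correction and 0 with the median absolute deviation background, the deposited values and detection on every array. Adipose minus liver (4) gave 1 with median centring and 2 with detection on every array. Leaving out 1 array gave 4 to 9, 3 to 5 and 4 to 7, the highest of the last 2 without adipose KO 5.

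Of 2111 alternative values for 116 single probe results, 1981 kept direction and call, 107 lost the call, 14 gained it and 9 changed sign. Those 9 were Tmed4 probe 2 in MEFs (-0.0025 with median centring, -0.0267 and -0.0241 without WT 1 and WT 2, -0.0204 without KO 1, up to 0.0863 without WT 3), Tmed4 probe 1 in adipose tissue (-0.0033 with slide section as a block), Tmed4 probe 2 in adipose tissue (-0.0030, -0.0029 and -0.0214 without WT 1, KO 3 and KO 5, up to 0.1175 without KO 2), and Tmed4 probe 2 for MEFs against liver (0.2084 in the 9 KO arrays). The last of these was called in the KO arrays (limma's adjusted p = 0.0424), in the direction opposite to the called WT difference of -0.3441. That probe averaged 8.21 in WT liver and 7.67 in KO liver, and 7.86 and 7.88 in WT and KO MEFs. The causes were not tested. The median of all probes moved from 0.02 to 0.11 with the median absolute deviation background and to 0.14 with the deposited values for adipose tissue against liver. Signal near background limits Snx5, Rab9 and Sec23a.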

Other observations

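Outside these families, transport genes of other lists were also measured. In KO liver Preb, the exchange factor that loads Sar1 at ER exit sites, fell by 0.38 (SE 0.04, limma's adjusted p = 0.0118) and the ESCRT-III gene Chmp1b fell by 0.32 (SE 0.05, adjusted p = 0.0343). Preb was 1 of 5 genes tested on its list and Chmp1b 1 of 7 on its list. The remaining lists outside these families held no call in liver, where 4.69% of all probes were called (2.73% lower). Without liver WT 2 or WT 3, with median centring or with the replicate block no gene of these lists was called in liver. Of the GLUT4 vesicle list, 6 genes were tested in MEFs, 6 in adipose tissue and 5 in liver, and none was called between genotypes.

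Sort1, which encodes the sorting receptor sortilin of GLUT4 vesicles, was higher in WT adipose tissue than in WT liver by 4.74 ± 0.07 on the log2 scale (8.72e-10 as limma's adjusted p) and than in WT MEFs by 4.58 ± 0.07. Lman1, the ER to Golgi cargo receptor ERGIC-53, was lower in WT adipose tissue than in liver (-2.30 ± 0.10).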
